A study of Mus musculus with 2 samples.

Results

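The genes described here are the nuclear genes of the mitochondrial respiratory chain, and the measurement is how open their promoters were in newborn mouse hindbrain. Members were the protein-coding nuclear genes whose symbol starts with Nduf, Uqcr, Atp5 or Cox4 to Cox8, together with Sdha, Sdhb, Sdhc and Sdhd. The rule found 94 gene entries with 93 symbols among 21938 protein-coding nuclear genes, since Atp5o is annotated with 2 entries. Hindbrain (cerebellum, pons and medulla) came from healthy mice of strain B6NCrl at age 0 days after birth, tissue of both sexes was pooled, and no transgene or treatment is named. There was 1 group with 2 biological replicates, whose labels give the same donor entry, so agreement between them may be technical. DNase-seq finds open chromatin by sequencing the ends that DNase I cuts where nucleosomes do not shield the DNA.

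The respiratory chain lies in the inner mitochondrial membrane. Complex I (NADH dehydrogenase) and complex II (succinate dehydrogenase) feed electrons into ubiquinone, complex III passes them on to cytochrome c, complex IV (cytochrome c oxidase) hands them to oxygen, and ATP synthase uses the resulting proton gradient to make ATP. Most subunits are encoded in the nucleus, the remainder in mitochondrial DNA, and neurons depend strongly on the pathway. Several complex IV subunits come in a ubiquitous form and a form known mainly from muscle, testis or lung.

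Replicates 1 and 2 held 271150 and 172002 peaks, nearly all 150 bp wide, and the depth of sequencing is unknown. Each peak has an authors' score, a whole number from 1 to 150 whose scaling is not stated, so scores and their percentiles rank peaks within 1 replicate only. The median score over all nuclear peaks was 45 in replicate 1 and 38 in replicate 2. The tissue label was checked on markers: each of 10 hindbrain genes had a promoter peak in replicates 1 and 2 (for example Zic1 with scores of 136 and 121, and En2 with 135 and 104), against 2 of 6 forebrain genes, Dlx5 and Emx2. Of 6 muscle and heart genes 2 had such peaks, of 6 testis genes 0, and of 4 lung genes 0.

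Nearly every member had an open promoter. A peak of each replicate lay within 500 bp of an annotated start site in 86 of 94 members (91.5%, exact Clopper-Pearson 95% interval 83.9 to 96.3, counting error only), against 66.3% of all protein-coding genes. In replicate 1 alone the count was 88 members against 70.8% of all genes, and in replicate 2 alone 87 members against 66.8%. By complex, peaks in both replicates were found for 36 of 38 complex I genes, 8 of 8 complex I assembly factors, 4 of 4 complex II genes, 8 of 8 complex III genes, 13 of 18 complex IV genes and 17 of 18 ATP synthase genes. The complex IV genes without both peaks were all restricted isoforms, and 11 of 11 other complex IV genes had both. No enrichment test was run.

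Promoters rich in CpG dinucleotides are open in most tissues, and most members have such promoters. Over 1001 bp around the 5′ end, 74 members had an observed over expected CpG ratio above 0.6, and 73 of them had peaks in both replicates, against 96.3% of all genes above that ratio. The share for CpG-rich members was therefore close to that of CpG-rich genes in general. Of the 20 members at or below 0.6, 13 had peaks in both replicates, against 40.7% of such genes. Among these 20 members, 8 are the restricted isoforms, and 11 of the 12 others were open. The ratio was taken at the 5′ end while any start counted for openness, and 2 of the 11, Atp5f1 (0.457) and Cox7a2l (0.136), lost the call when only 500 bp around the 5′ end counted.

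**Figure D1:**
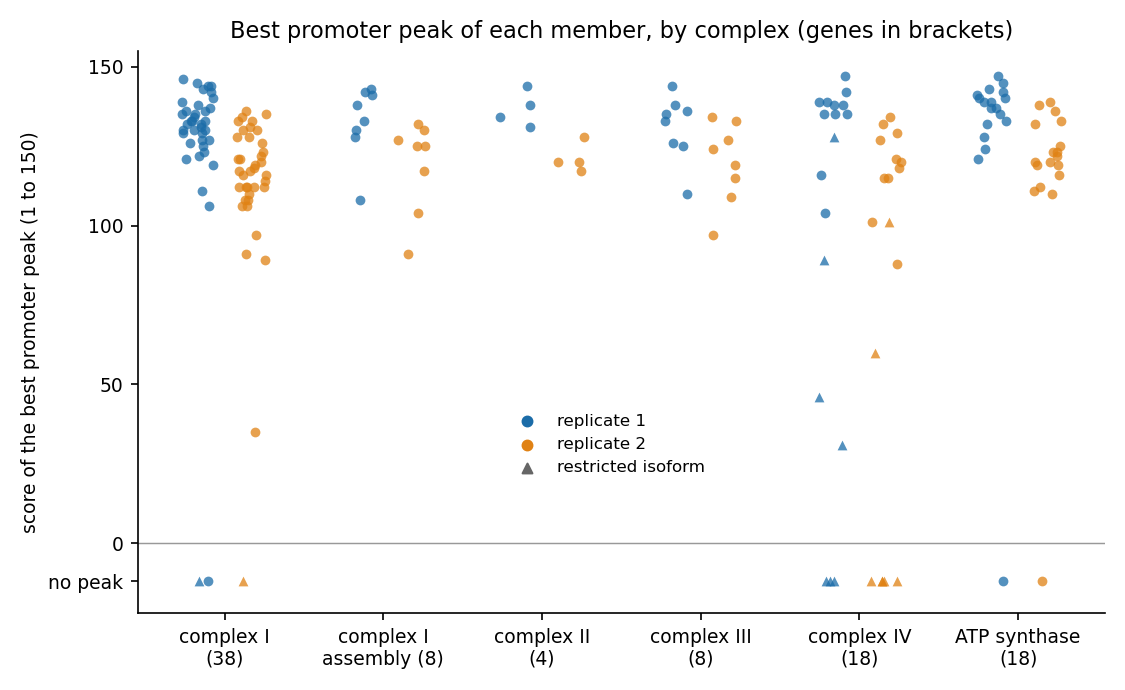
Score of the best promoter peak (y axis, 1 to 150, no unit) of each member in replicate 1 (blue) and replicate 2 (orange), by complex; triangles are restricted isoforms and the lowest band holds genes with no promoter peak. In every complex most genes sit above 100 in both replicates, as do the medians over all genes open in both (129 and 109). Of the 8 genes without a peak in both replicates, 6 are restricted isoforms.

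Peaks at these promoters ranked high in their lists. Of the 86 members, 79 had scores of at least 100 in both replicates. The medians over all genes open in both also passed that mark, and the share of those genes that did so was not counted. The median score was 135 in replicate 1 and 120 in replicate 2, against 129 and 109 over the 14541 genes open in both. The median percentile among all peaks was 98.1 and 97.2, against 97.1 and 95.4. Percentiles above 95 were reached by 80 members (93.0%) in replicate 1 and 74 (86.0%) in replicate 2, against 68.8% and 53.5% of open genes. Open genes with a CpG ratio above 0.6 came closer, with median scores of 134 and 117, against 135 and 120 for members above that ratio. Percentiles above 95 were reached by 82.1% and 66.6% of those genes and by 93.2% and 87.7% of those members. Among promoter peaks only, the median member stood at percentile 64.7, so much of the high rank is common to promoters. Spearman's rho of the score between replicates was 0.791 over the 86 members and 0.937 over the open genes, a description across genes that share both libraries. Members spanned a narrower range, 89 to 147 in replicate 1 against 13 to 150. Their percentiles differed between replicates by a median of 1.02, against 1.77 over the open genes, but members also lay nearer the top of both lists. Above a CpG ratio of 0.6 rho was 0.779 over members and 0.896 over open genes. Because range and position differ, these values do not settle whether the replicates agreed less well over members. Only Ndufv1, the flavin-binding core subunit, did not score higher in replicate 1 (133 and 135). Scores were higher in replicate 1 for 98.8% of members and 99.1% of open genes, so this shift is common to both lists and not a trait of members.

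Complex I takes electrons from NADH through the flavin and iron-sulfur subunits, among them Ndufv1, Ndufv2 and Ndufs1. The best promoter peak of Ndufv2 scored 145 in replicate 1 and 133 in replicate 2. A pair of accessory subunits ranked as high, Ndufa2 with 144 and 136 and Ndufa6 with 144 and 133. The complex I median was 132.5 and 117.5, with a range of 106 to 146 and 89 to 136 over its 36 open genes. The low end was held by accessory subunits encoded on the X chromosome, Ndufb11 (106 and 91) and Ndufa1 (111 and 89). Ndufa1 was also among the 4 members whose percentile differed most between replicates, as was the accessory subunit Ndufa12 (139 and 112).

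Assembly factors help to build complex I and are not part of the finished enzyme. All 8 had peaks in both replicates, with a median score of 135.5 and 125. Ndufaf2 scored 141 and 132, Ndufaf3 143 and 125, Ndufaf7 138 and 130, and Ndufaf8 142 and 125. Ndufaf1 was the lowest of the 8 at 108 and 91. For all 8 genes the best peak lay within 100 bp of a start in both replicates, on its upstream side. Over all genes open in both replicates, 72.6% and 69.7% had it within 100 bp and 73.8% and 74.5% had it upstream. Over all members open in both, 76.7% had it upstream in each replicate.

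Ndufa13 (chromosome 8, minus strand), a subunit of complex I also known as GRIM-19, was the only complex I gene apart from Ndufa4l2 without a promoter peak in both replicates. At its annotated GENCODE start, 69902558, replicate 1 had no peak and replicate 2 had weak peaks with scores of 33 and 35. Strong peaks of both replicates flanked that start. On the gene side replicate 1 had a peak at chr8:69901616-69901765 with a score of 135, and replicate 2 had 1 at chr8:69901636-69901785 with 127, centred 867.5 and 847.5 bp inside the gene. Upstream, both had a peak at chr8:69903196-69903345 with scores of 138 and 128, centred at -712.5 bp. Ndufa13 shared its promoter window with Yjefn3 and Tssk6. A start of Yjefn3, on the same strand, lies 154 bp upstream of that of Ndufa13 and is nearer to the upstream peak. Which gene that peak belongs to was not tested. The gene-side peak covers the annotated start codon (69901633 to 69901635, 923 bp from the GENCODE start), which stands near the end of the first sequence as atg. RefSeq also has a start at 69902020, nearer to it, and with RefSeq starts, with hotspots or with a window of 1000 bp the gene counted as open in both replicates. The 2 flanking replicate 1 peaks are shown from the mm10 genome on the gene's strand, with capitals marking an ETS match (gene side) and an NRF1 match (upstream).
Ndufa13 gene side: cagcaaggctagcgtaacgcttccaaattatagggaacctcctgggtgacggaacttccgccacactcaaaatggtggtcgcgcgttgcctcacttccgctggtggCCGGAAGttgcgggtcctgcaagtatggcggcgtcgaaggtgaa
Ndufa13 upstream: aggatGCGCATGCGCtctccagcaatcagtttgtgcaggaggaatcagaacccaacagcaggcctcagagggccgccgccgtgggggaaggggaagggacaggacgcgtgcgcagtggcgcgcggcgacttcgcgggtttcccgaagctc

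Complex II oxidises succinate and is encoded wholly in the nucleus. Sdhb, its iron-sulfur subunit, had the highest scores, 144 and 128. Sdhd, a membrane anchor, had 138 and 120, Sdha, the flavoprotein, had 134 and 120, and Sdhc, the other anchor, had 131 and 117. The range was 131 to 144 in replicate 1 and 117 to 128 in replicate 2, and each of the 4 genes was above percentile 95 in both. The replicate 1 peaks of the highest gene (chr4:140961196-140961345, plus strand) and of Sdhd, which held 2 kinds of motif (chr9:50603816-50603965, minus strand) are shown, with ETS and NRF1 matches in capitals.
Sdhb: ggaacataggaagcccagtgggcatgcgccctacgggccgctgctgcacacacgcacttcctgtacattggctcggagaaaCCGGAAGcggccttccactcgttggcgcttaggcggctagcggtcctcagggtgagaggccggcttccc
Sdhd: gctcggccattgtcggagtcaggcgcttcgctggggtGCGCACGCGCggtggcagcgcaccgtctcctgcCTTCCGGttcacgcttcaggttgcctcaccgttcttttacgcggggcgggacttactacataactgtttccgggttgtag
In the Sdhd peak the NRF1 match comes first and the ETS match follows it, and the centre of the peak lay between the starts of Sdhd and the divergent gene Timm8b.

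Complex III, the cytochrome bc1 complex, had peaks in both replicates at all 8 genes, with a median of 134 and 121.5. Uqcrh, the hinge protein that contacts cytochrome c1, scored 144 and 133. Uqcrfs1, the Rieske iron-sulfur protein, scored 138 and 134, Uqcrq 136 and 127, and Uqcr11 133 and 119. The core protein gene Uqcrc1 was the lowest, at 110 and 97. The best Uqcrh peak lay away from the start, centred at -359.5 and -319.5 bp, on the side of its neighbour Lrrc41. Its replicate 1 sequence (chr4:116075356-116075505, minus strand) held 2 matches to the YY1 motif, in capitals.
Uqcrh: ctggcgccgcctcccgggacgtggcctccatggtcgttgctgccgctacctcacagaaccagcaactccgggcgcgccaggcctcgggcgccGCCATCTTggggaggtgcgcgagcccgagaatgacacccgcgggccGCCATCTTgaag

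By mean percentile over both replicates, complex IV was highest at Cox7a2 (scores of 147 and 132), Cox5b (139 and 134), Cox4i1 (142 and 127) and Cox8a (138 and 129). Cox4i1 encodes a regulatory subunit and Cox5b a zinc-binding one. Cox6c was the lowest ubiquitous gene of the complex at 104 and 88. The median over the 11 genes that are not restricted was 138 and 120.

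ATP synthase had a median of 139 and 122, the highest of the groups in replicate 1 and below the assembly factors in replicate 2. Its range (121 to 147 and 110 to 139) overlapped that of every other complex. All 17 of its open genes were above percentile 95 in both replicates. Atp5g1, 1 of 3 genes for the proton-carrying subunit c, scored 145 and 139, and its relatives Atp5g2 and Atp5g3 scored 141 and 125, and 132 and 116. Atp5d (subunit delta) had 147 and 132, Atp5f1 (subunit b of the stator) 140 and 136, and Atp5c1 (the rotating subunit gamma) 139 and 138. Hotspots, the authors' broader open regions, had a median width of 2059 and 1889 bp over the 3 subunit c genes. Over the 86 members it was 1124 and 1144 bp, and some other members, such as Uqcrh (2166 and 2754 bp), were as wide. The ATP synthase entry without a peak, the second Atp5o entry (ENSMUSG00000116933), begins inside the first entry, 298 bp upstream of an internal start of it, and the first entry was open with 142 and 120. Atp5s, counted here by its symbol, is not a subunit, and it scored 139 and 119.

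Restricted isoforms and their ubiquitous partners were set side by side, with no test of the difference. Of 8 restricted isoforms 2 had peaks in both replicates (25%, exact Clopper-Pearson 95% interval 3.19 to 65.1), against 7 of 7 partners, and in replicate 1 alone the count was 4 of 8. Wherever both genes of a pair had a peak the partner scored higher. All 8 restricted isoforms had a CpG ratio of at most 0.6, against 1 of 7 partners (Cox7b, 0.482), and over all protein-coding genes 40.7% of those at or below that ratio were open. At nearly the same ratio Cox7b was open in both replicates and Cox7b2 (0.468) in neither. The part of CpG content in the difference was not tested.

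**Figure D2:**
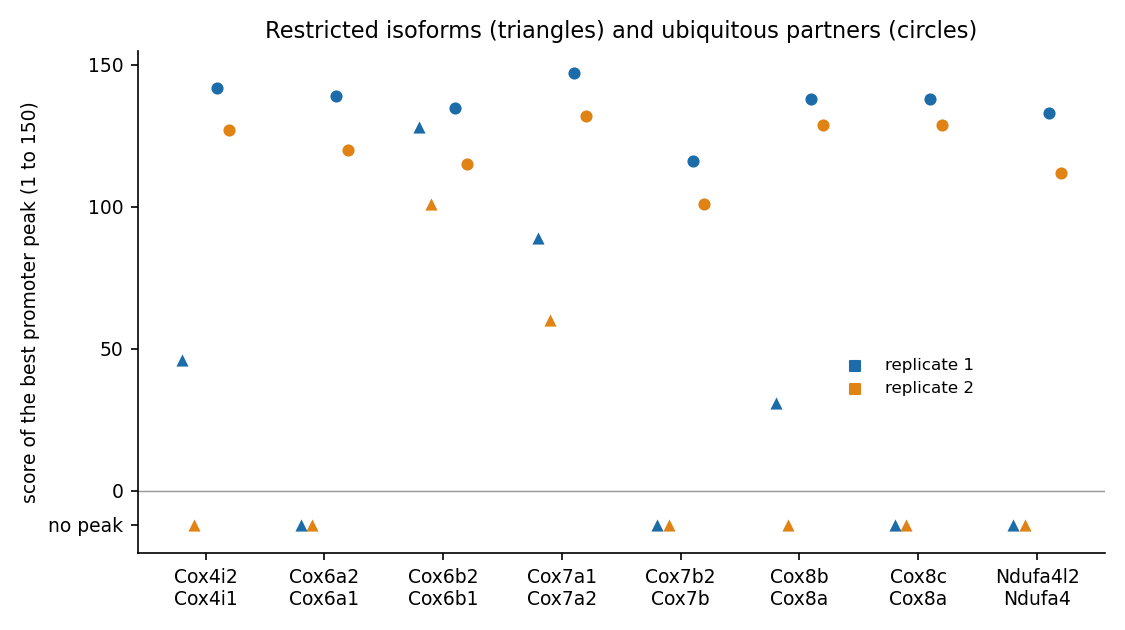
Score of the best promoter peak (y axis, 1 to 150, no unit) for each restricted isoform (triangles, upper name) and its ubiquitous partner (circles, lower name), in replicate 1 (blue) and replicate 2 (orange); the lowest band means no peak. Every partner is at 101 or above, while only Cox6b2 and Cox7a1 among the restricted isoforms have a peak in both replicates.

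Isoforms known from heart and skeletal muscle differed among themselves. Cox7a1 had peaks of 89 and 60, below Cox7a2 at 147 and 132, and it was the lowest of the 86 members and the one whose percentile differed most between replicates (86.7 and 75.7). Cox8b had a peak of 31 in replicate 1 only, below that list's median, against 138 and 129 for Cox8a. Cox6a2 had none in either replicate, against 139 and 120 for Cox6a1, and its nearest peaks were centred at -1983.5 and -1763.5 bp. Of the 6 muscle and heart markers, Myl2 (47 and 35) and Nppa (57 and 33) had a promoter peak in each replicate, while Ckm, Acta1, Myh6 and Myf6 had none. The part of muscle cells in the Cox7a1 peak was not tested.

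Isoforms known from testis also differed. Cox6b2 had peaks of 128 and 101, close to the 135 and 115 of Cox6b1, and its hotspots were wider (1623 and 1705 bp against 723 and 927 bp). Cox7b2 had no peak, against 116 and 101 for Cox7b, with its nearest peaks 2194.5 and 2434.5 bp inside the gene. Cox8c had no peak within 500 bp, and peaks of 44 and 27 lay 894.5 and 914.5 bp inside the gene. None of the 6 testis markers had peaks in both replicates, and Odf1 alone had 1, in replicate 1 with a score of 34. Of the hypoxia-linked isoforms, Cox4i2, also known from lung, had a peak of 46 in replicate 1 only, against 142 and 127 for Cox4i1. Ndufa4l2 had none, against 133 and 112 for Ndufa4, whose product is also described as a complex IV subunit. The peaks nearest to the GENCODE start of Ndufa4l2 scored 57 in replicate 1, 763.5 bp inside the gene, and 95 in replicate 2, at -1936.5 bp. Distal regions found in both replicates and nearest to Ndufa4l2 numbered 5, with a highest mean percentile of 95.6. With RefSeq starts Ndufa4l2 gained peaks of 127 and 121, through a predicted transcript model that begins at 127509274, upstream of its GENCODE start at 127514967. A gene without a peak fell below the authors' calling threshold, which does not show that its promoter was closed.

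The replicate 1 peaks of 3 pairs are shown for their CpG content. Cox4i2 and Cox4i1 also both had a replicate 1 peak, and their sequences are not shown. They are the best promoter peaks of Cox7a2 (chr9:79759736-79759885, minus strand) and Cox7a1 (chr7:30184036-30184185, plus), Cox8a (chr19:7217596-7217745, minus) and Cox8b (chr7:140900196-140900345, minus), and Cox6b1 (chr7:30626136-30626285, minus) and Cox6b2 (chr7:4753016-4753165, minus). Capitals mark ETS matches, and the letters come from the mm10 genome.
Cox7a2: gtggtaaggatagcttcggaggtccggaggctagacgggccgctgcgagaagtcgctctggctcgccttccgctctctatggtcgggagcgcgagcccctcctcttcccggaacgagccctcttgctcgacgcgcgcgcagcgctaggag
Cox7a1: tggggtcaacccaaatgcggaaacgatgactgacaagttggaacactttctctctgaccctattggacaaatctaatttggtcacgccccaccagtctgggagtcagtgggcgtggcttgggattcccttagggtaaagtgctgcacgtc
Cox8a: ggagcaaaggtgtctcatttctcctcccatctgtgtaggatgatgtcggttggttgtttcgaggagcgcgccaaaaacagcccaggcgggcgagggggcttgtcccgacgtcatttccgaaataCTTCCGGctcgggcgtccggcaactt
Cox8b: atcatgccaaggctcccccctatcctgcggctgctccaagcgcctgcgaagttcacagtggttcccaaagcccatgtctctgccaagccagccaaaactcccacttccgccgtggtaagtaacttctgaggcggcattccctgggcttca
Cox6b1: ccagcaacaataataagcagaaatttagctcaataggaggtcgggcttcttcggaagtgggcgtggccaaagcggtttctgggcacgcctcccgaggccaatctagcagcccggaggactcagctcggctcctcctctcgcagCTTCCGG
Cox6b2: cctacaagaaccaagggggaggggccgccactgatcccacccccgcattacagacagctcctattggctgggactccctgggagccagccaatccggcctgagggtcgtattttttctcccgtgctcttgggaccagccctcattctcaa
The peak of Cox7a2 held 19 CpG and that of Cox7a1 held 5. Cox8a held 13 against 6 for Cox8b, and Cox6b1 held 10 against 5 for Cox6b2, although Cox6b2 scored nearly as high. In the pair not shown, Cox4i1 held 23 and Cox4i2 held 12, more than the Cox6b1 peak, so restricted peaks were not all poor in CpG. The ETS match was present in the Cox8a and Cox6b1 peaks and in neither restricted partner. It was also absent from the peaks of the ubiquitous genes Cox7a2 and Cox4i1. The Cox8b peak, found in replicate 1 only, was centred 175.5 bp inside the gene and that of Cox8a at -54.5 bp. These 2 peaks therefore do not cover like parts of the promoter.

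Peaks sat close to the start sites. The best peak was centred at a median of -24.5 bp in replicate 1 and -29 bp in replicate 2, where negative values lie upstream. It lay within 100 bp of a start in 76 of the 86 members (88.4%) in replicate 1, against 72.6% of open genes. In replicate 2 it did so in 75 (87.2%), against 69.7%. The exceptions included Atp5g1 at -240.5 bp in both replicates, Uqcrh, Ndufa4 at -313.5 and -253.5 bp, Cox7a2l at -300.5 and -260.5 bp, and Uqcr10 at -308.5 and -288.5 bp.

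**Figure D3:**
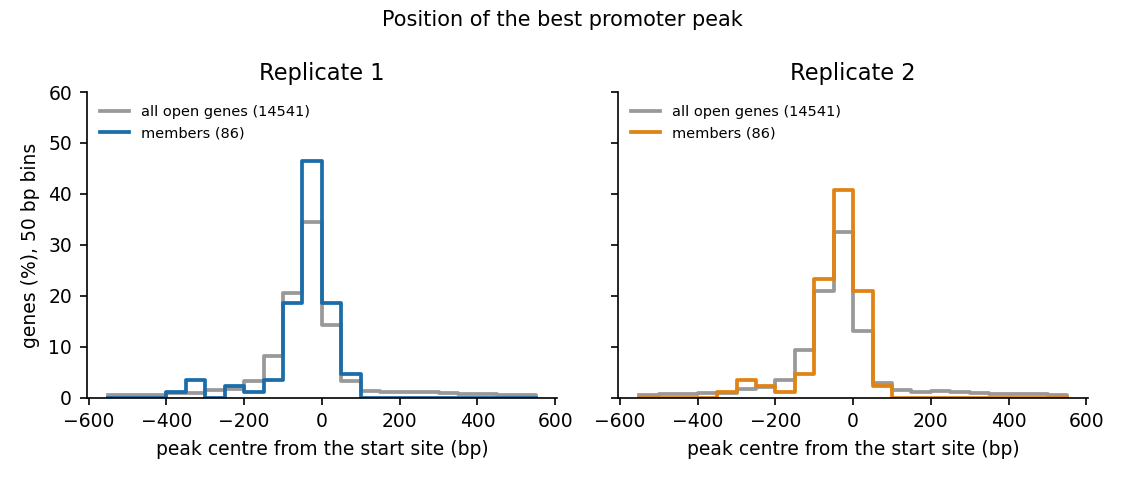
Share of genes (y axis, percent in 50 bp bins) by the distance of the best promoter peak's centre from the nearest start site (x axis, bp, negative upstream), for members (coloured) and all genes open in both replicates (grey), in each replicate. Members gather in the bins next to the start, and 76 and 75 of 86 lie within 100 bp of it.

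Many members shared their promoter with a neighbouring gene. The window within 500 bp of a start overlapped the window of another protein-coding gene in 39 of 94 members (41.5%), against 14.6% of all genes, and a peak there counts for both genes. In 37 the neighbour had another symbol. The count was 18 of 38 for complex I, 4 of 8 for its assembly factors, 3 of 4 for complex II, 4 of 8 for complex III, 9 of 18 for ATP synthase and 1 of 18 for complex IV (Cox4i1, beside Emc8 and Gm27021). Of 41 pairs, 33 were divergent with a median of 85 bp between starts, 4 overlapped on opposite strands and 4 lay on the same strand. Some partners also serve mitochondria or protein synthesis: Timm8b, an import factor, starts 98 bp from Sdhd, the mitochondrial ribosome genes Mrpl47 and Mrpl36 overlap Ndufb5 and Ndufs6 by 20 and 29 bp, Rps28 starts 10 bp from Ndufa7 and Eef1b2 3 bp from Ndufs1. Gabpa, which encodes an ETS factor, overlaps Atp5j by 31 bp. The best replicate 1 peak lay nearer to the member in 26 pairs and nearer to the partner in 12, and 3 pairs had no such peak. Without the shared windows 49 of 55 members (89.1%) were open in both replicates, against 62.0% of all genes with unshared windows.

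**Figure D4:**
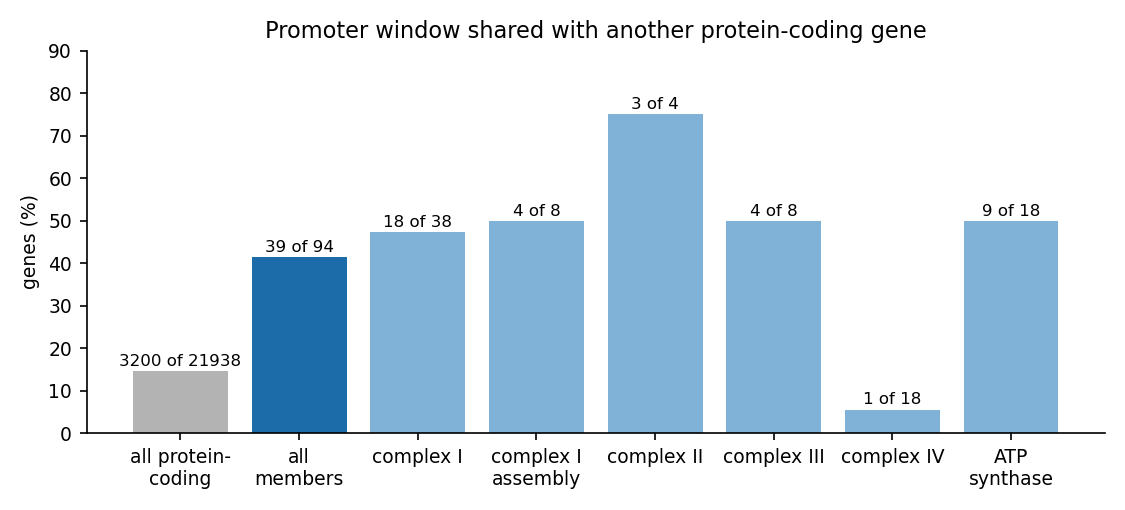
Share of genes (y axis, percent) whose promoter window overlaps that of another protein-coding gene, for all protein-coding genes, all members and each complex, with counts above the bars. Complex IV has 1 of 18, while every other complex has between 47.4% and 75% of its genes in shared windows.

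Nuclear respiratory factor 1 (NRF1), the ETS factor GABPA (NRF2) and YY1 are known regulators of respiratory genes. Their motifs were searched on both strands in RefSeq promoters (GRCm38.p6, from 250 bp before to 50 bp after the start), which held 75 of the 93 member symbols. The NRF1 motif, GCGCA, any base, then GCGC, was present in 19 members (25.3%), against 7.17% of all protein-coding promoters and 10.7% of those open in both replicates. The ETS motif CCGGAAG was present in 18 (24.0%), against 12.9% and 18.2%. The YY1 motif AAGATGGC was present in 11 (14.7%), against 3.57% and 4.79%. At least 1 of the 3 was found in 41 members (54.7%), against 21.0% of all promoters, and at least 2 in 7 (9.33%), against 2.55%. The 7 were Atp5h, Atp5j, Atp5k, Cox6a1, Ndufaf8, Ndufs6 and Sdhd. None of the 3 motifs was found in the 4 restricted isoforms that the table held.

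Counts per complex rest on few promoters, and differences between complexes were not tested. NRF1 matches were found in 6 of 14 ATP synthase promoters (Atp5c1, Atp5g2, Atp5g3, Atp5h, Atp5k and Atp5o), 7 of 33 for complex I, 2 of 3 for complex II, 1 of 5 for complex III and 1 of 13 for complex IV (Cox6a1). ETS matches were found in 5 of 14 for ATP synthase, 4 of 33 for complex I, 2 of 3 for complex II, 2 of 5 for complex III and 3 of 13 for complex IV, the last being Cox6a1, Cox6b1 and Cox8a. YY1 matches were found in 3 of 14 ATP synthase and 7 of 33 complex I promoters, and in 0 of 3, 0 of 5 and 0 of 13 for complexes II, III and IV. The best replicate 1 peaks of Sdhc and Uqcrh did hold YY1 matches. The promoter of Sdhc was not matched in RefSeq, and peaks need not lie within the promoter window. Of 7 promoters of assembly factors, 2 had an NRF1 match, 2 an ETS match and 1 a YY1 match. The SP motif GGGCGG was present in 45.3% of members, against 49.2% of all promoters and 68.1% of those of open genes. The best peaks themselves had a median GC content of 63% and 62%, against 66% and 65.3% over all genes with a peak. Other motifs were CCAAT in 44.0% of members against 42.3% of all promoters, the cyclic AMP element TGACGTCA in 5.33% against 2.54%, TATAAA in 9.33% against 14.8%, and the ERR motif TCAAGGTCA in 2 members, Atp5g3 and Sdhd, against 0.377%. A match is a run of letters, and binding was not measured.

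Within the best replicate 1 peaks of 88 members the same 3 motifs were also more frequent than over all genes with a peak. NRF1 was present in 20 (22.7%) against 8.05%, ETS in 16 (18.2%) against 12.6%, and YY1 in 9 (10.2%) against 2.35%. The SP motif was present in 36.4% against 53.8%.

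**Figure D5:**
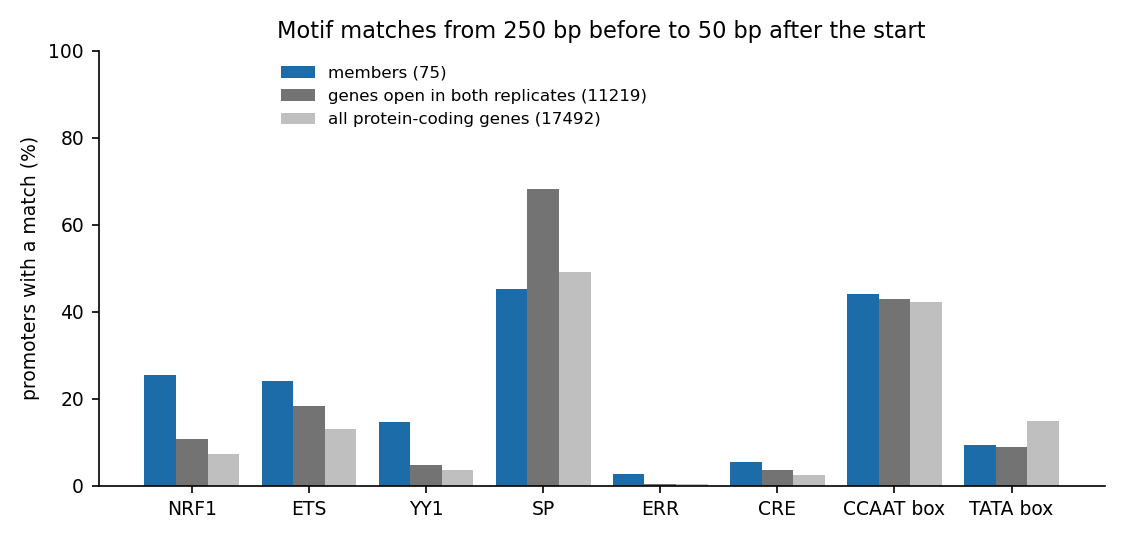
Share of promoters (y axis, percent) with a match to each of 8 motifs on either strand, for 75 members, all 11219 genes of the table open in both replicates and all 17492 protein-coding genes of the table. NRF1, ETS and YY1 stand higher in members than in either comparison set, and SP stands lower than in open genes.

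Distal open regions, over 500 bp from every start and found in both replicates, were few around members. In all 228 such regions lay nearest to a member, a mean of 2.43 and a median of 1 per gene, against 4.90 and 2 over all protein-coding genes. The stretch of genome nearest to a member was also shorter, with a median of 19.4 kb against 45.0 kb, and per 100 kb the counts were 3.24 and 3.94. No such region lay nearest to 36 of 94 members (38.3%), against 31.3% of all genes. Atp5g3 had the most, 26 over 321 kb, followed by Ndufa4 with 18 over 1479 kb and Cox7a2l, a factor in the assembly of supercomplexes, with 17 over 94.2 kb. Ndufa10, Ndufb4 and Ndufs4 had 11 each. Assignment was by distance alone, which does not show that a region acts on the gene.

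Other genes of the pathway were mostly open as well. Of 54 listed genes for cytochromes c and c1, assembly, mitochondrial DNA expression and nuclear regulation, 52 (96.3%) had promoter peaks in both replicates, against 66.3% of all protein-coding genes and 96.3% of the CpG-rich ones. Cytochrome c followed the isoform pattern: Cycs, the ubiquitous gene, scored 141 and 132, and Cyct, known from testis, had no peak. The other gene without a peak was Sdhaf1, a complex II assembly factor. Cyct and Sdhaf1 had CpG ratios of 0.332 and 0.0858. With RefSeq starts 53 of the 54 genes were open in both replicates. All 14 complex IV, 6 complex III and 7 complex I assembly genes outside the Nduf symbols were open. All 8 regulators were open too, with 143 and 126 for Nrf1, 137 and 123 for Gabpa, 147 and 143 for Yy1 and 144 and 133 for Esrra. Ppargc1a, the coactivator of mitochondrial biogenesis, was lower, at 68 and 51.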

How the data were processed

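DNase-seq peaks and hotspots were deposited per replicate on mm10, per the labels, and replicates were not pooled. For the aligner and caller: not given in the sources used here. The deposited peak value is a score from 1 to 150 of unstated scaling, and the deposited hotspot value is a −log10 q, used only to describe hotspots. Neither file gives read counts.

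Start sites came from all transcripts of GENCODE mouse release 21 (GRCm38). Overlaps of at least 1 bp, percentiles, CpG ratios and motifs were computed with Python 3.11.15, pandas 2.3.3 and numpy 2.4.6, and sequences were read with pysam 0.24.0. The steps were tested on simulated data. No test was run: there is 1 group, so shares stand beside those of all protein-coding genes. The members, the lists (pathway genes and markers of hindbrain, forebrain, muscle and heart, testis and lung) and the alternatives were chosen with earlier results of these data known. Named genes were all isoform pairs, all members without peaks in both replicates, up to 4 highest per complex, the 4 lowest, the 4 with the largest replicate difference and the 5 with the most distal regions (ties by alphabet); others, such as those named for a position, a neighbour, a motif or a low score within a complex, were chosen after their values were seen. Promoters of 18 member symbols were not matched in the RefSeq table. Mitochondrial peaks were left out of comparisons, and the values of 1 gene that the naming rule selects are not reported here.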

Additional observations from a re-analysis of the deposited data

Results flagged for a closer look

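Peaks on the mitochondrial chromosome were outside every comparison above. Replicate 1 had 30 such peaks and replicate 2 had 25, covering 4500 and 3750 bp, with scores from 123 to 150 in both. Each replicate had 17 hotspots there, covering 10330 bp. These peaks lie in the DNA that encodes the remaining respiratory chain subunits, and there were no control samples to set them against.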

How the results depend on the processing

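No paired analysis was possible because there is only 1 group. The share of members open in both replicates ranged from 89.1% to 94.6% over all alternatives, among them hotspots, lists of equal length, stronger peaks, autosomes and, chosen after seeing the data, RefSeq starts. With the 5′ end of each gene only, Atp5f1 and Cox7a2l were lost, and with protein-coding transcripts only, Atp5f1. Windows of 1000 bp added Cox8c and Ndufa13, so that 3 of 8 restricted isoforms (37.5%) were open, as also with RefSeq starts. Leaving out a replicate gave 25% to 50% of restricted isoforms (the higher value rests on Cox4i2 and Cox8b in replicate 1 alone) and 3.19 to 5.20 distal regions per member. The median percentile of 97.5 became 64.7 among promoter peaks. The median peak distance, averaged over replicates, moved from -26.5 bp to -18.5 bp with 5′ ends only and to -18.5 bp with the nearest peak. Summed hotspots gave a median width of 1224 bp in place of 1116 bp. The ratio of member share to background share for the ERR motif was 7.07 in promoters and 19.6 and 18.7 in the best peaks, where 1 member had a match. It was 2.10 for the cyclic AMP element and 1.12 and 1.11 in the best peaks. For TATAAA it was 0.631, and 1.10 in the best replicate 2 peaks and 1.05 against open genes. The causes of these shifts were not tested. NRF1 and YY1 ratios stayed between 2.37 and 4.42 under every setting run, and ETS ratios between 1.32 and 1.85. Unknown depth limits any reading of a missing peak, and the 2 replicates share a donor entry.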

Other observations

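The 3 members on the X chromosome were among the 7 lowest of the 86 members open in both replicates. Ndufb11, Ndufa1 and Cox7b stood at ranks 3, 5 and 7 from the lowest by mean percentile, with scores of 106 and 91, 111 and 89, and 116 and 101, against medians of 135 and 120 over the 83 autosomal members. Over all genes open in both replicates, the 464 X-linked genes had median scores of 114 and 89, and the 14073 autosomal genes 130 and 110. Among genes with a CpG ratio above 0.6 the medians were 121 and 99 for 231 X-linked genes and 135 and 117 for 9479 autosomal genes. The sexes were pooled in each replicate. The pattern was noticed in these data, and its cause was not tested.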
